A study of Mus musculus with 20 samples.

Results

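The miRNAs of the imprinted Dlk1-Dio3 locus on mouse chromosome 12 were followed in small RNA libraries from mouse heart. The members were 43 mature miRNAs taken by name from the locus, out of 1545 entries in the table, and none was chosen for its measured level. Of the 43 members, 33 reached 5 RPM (reads per 1000000 miRNA reads) in 4 or more libraries and were among the 360 miRNAs tested. The libraries came from 20 C57BL/6J hearts: 5 after sham surgery (sham), 4 after myocardial infarction (MI), 4 after CIH and 7 after both (MI+CIH). CIH stands in the labels as letters only and is read here as chronic intermittent hypoxia, since the title of the study names sleep breathing disorders. All groups share the strain, and the labels name no transgene, deletion or drug. Age, sex, the time after infarction, the hypoxia schedule and the region of the heart taken are not given in the sources used here. Library 1 of a group is written sham 1, MI 1 and so on, with the numbers of the labels.

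The Dlk1-Dio3 region is imprinted: the maternally inherited chromosome expresses its non-coding RNAs, and the paternally inherited chromosome expresses the protein-coding genes Dlk1, Rtl1 and Dio3. The miRNAs are cut from long maternal transcripts, and many of them are abundant in the embryo, placenta and brain and low in most adult tissues. A miRNA represses messenger RNAs mainly through its seed, the bases near its 5′ end that pair with the target.

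On GRCm38.p6, 36 hairpins gave the 43 members, all on the plus strand of chromosome 12 between positions 109585789 and 109743795, a span of 158 kb. They fall into 3 stretches. The first holds 7 hairpins and 11 members. Of these hairpins, Mir431, Mir433, Mir127, Mir434 and Mir136 overlap Rtl1 on the opposite strand, so that their miRNAs can pair without mismatch with Rtl1 messenger RNA, while Mir337 and Mir540 lie just outside that gene. Mir341 and Mir370 lie within the non-coding gene Rian. The third stretch runs from Mir379 to Mir410 with 27 hairpins and 30 members, and 10 of its hairpins lie within the non-coding gene Mirg.

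RefSeq sequences (GRCm38.p6) matched 40 of the 43 members by name, and all but miR-376c-3p, miR-485-5p and miR-487b-3p are thus known by sequence here. The sequences below are those of the 3 most abundant members, of the 3 members with the largest changes in MI+CIH against sham, of the arms whose balance differed between libraries, and of entries that nearly share their bases. Each runs 5′ to 3′, and the capitals mark the seed, bases 2 to 8.
miR-127-3p: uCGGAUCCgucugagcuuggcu
miR-127-5p: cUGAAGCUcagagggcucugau
miR-379-5p: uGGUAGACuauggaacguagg
miR-411-5p: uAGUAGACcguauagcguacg
miR-541-5p: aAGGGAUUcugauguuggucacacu
miR-337-5p: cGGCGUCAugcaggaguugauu
miR-382-5p: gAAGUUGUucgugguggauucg
miR-409-3p: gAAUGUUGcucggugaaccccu
miR-409-5p: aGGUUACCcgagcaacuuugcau
miR-136-5p: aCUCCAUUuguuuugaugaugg
miR-136-3p: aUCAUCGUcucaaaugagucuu
miR-3071-5p: aCUCAUUUgagacgaugaugga
miR-300-3p: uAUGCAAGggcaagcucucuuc
miR-381-3p: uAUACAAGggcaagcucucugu

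The 40 sequences held 40 different seeds, so none of the 40 members with a sequence shared a seed with another of them. The miR-379-5p and miR-411-5p sequences are alike in 14 of 21 bases and differ inside the seed at G2A, counted from 1 at the 5′ end with the miR-379-5p base first. The closest pair by share of bases was miR-300-3p and miR-381-3p, alike in 19 of 22 bases. The differences were G4A, U21G and C22U from miR-300-3p to miR-381-3p. The rare miR-376a-3p and miR-376b-3p also differed in 3 bases and were alike in 18 of 21. The miR-3071-5p entry is no member: its hairpin lies on the strand opposite Mir136, and 19 of its 22 bases are the reverse complement of miR-136-3p. The levels of miR-136-3p and miR-3071-5p averaged 70.1 and 69.6 RPM and differed by at most 5% in any library. How reads were assigned to strands is not given in the sources used here, so values for miR-136-3p cannot be told apart from those of miR-3071-5p.

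Library size ran from 1991323 to 18138415 reads, and 1 read was thus worth between 0.0551 and 0.502 RPM. Clustering of the tested miRNAs outside the locus split the libraries into 3 sets that followed infarction in part. Hearts without infarction all fell in the same set, while infarcted hearts fell in all 3. The largest, called set A, is made up of the 9 hearts without infarction plus MI 2 and MI+CIH 1. Set B consists of 6 infarcted hearts (MI 1 and 3, MI+CIH 2, 3, 4 and 5) and set C of the remaining MI 4, MI+CIH 6 and MI+CIH 7. The correlation between libraries (Pearson's r) was 0.908 to 0.994 within a set and 0.708 to 0.936 between sets, over these other miRNAs. The labels name no batch that could be set beside these sets. Sham 1 and MI+CIH 1 stood above the rest of set A in the locus, and their counts follow the comparisons. Since every sham and CIH heart lies in set A, a difference between groups and a difference between sets cannot be told apart in most of the infarcted hearts. A fit with the library set as a term compares infarcted hearts with sham or CIH only through MI 2 and MI+CIH 1. A loss of calls in that fit thus cannot decide whether a group difference remains. The heart marker miR-1a-3p was the main cardiomyocyte miRNA in all libraries, between 69203 and 314224 RPM.

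Locus miRNAs were a small share of heart miRNA and were most abundant in the infarcted hearts of set B. The 43 members together took 3172, 906, 589.5, 672 and 728 RPM in sham 1 to 5. They took 5586, 799.8, 5970.4 and 1730.5 RPM in MI 1 to 4, and 997, 554, 564 and 524 RPM in CIH 1 to 4. The 7 MI+CIH hearts lay between 2365 and 9514 RPM with a median of 4610.0 RPM. All MI+CIH hearts were thus above every CIH heart, but sham 1 was above MI+CIH 1, MI+CIH 6 and MI+CIH 7. By set, the sum was 524 to 3172 RPM in A, 4610.0 to 9514 RPM in B and 1730.5 to 2519.7 RPM in C. Between 3832 and 62184 reads per library lie behind these sums.

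**Figure D1:**
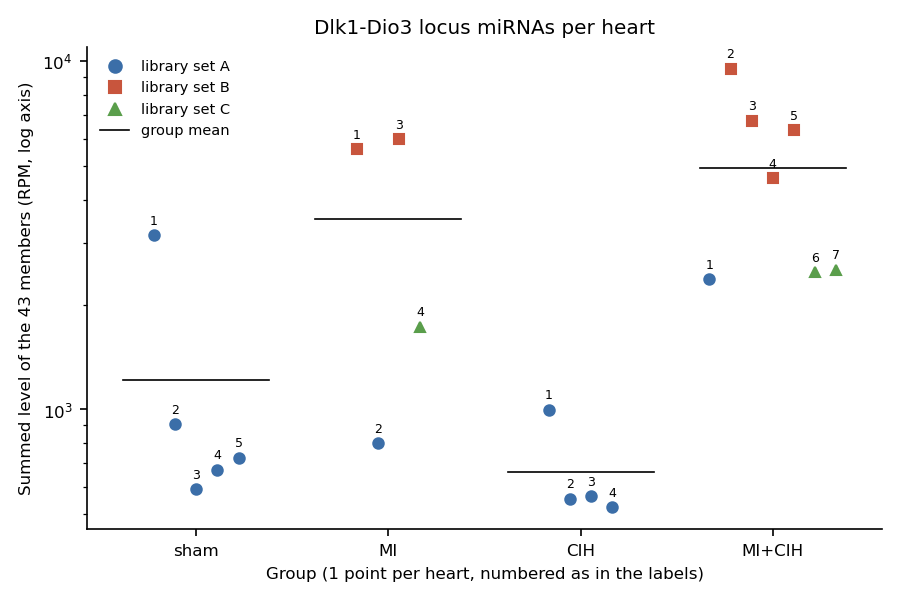
Summed level of the 43 locus members in each heart (RPM, log axis) by group, with 1 point per heart, its label number, its library set by colour and shape, and the group mean as a line. The set B hearts lie highest, between 4610.0 and 9514 RPM, sham 1 lies far above the other sham hearts, and MI 2 lies among them.

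The first stretch, with the hairpins opposite Rtl1 and the neighbours Mir337 and Mir540, held 63.6% of the mean locus level, the miR-379 to miR-410 stretch 35.9%, and the Rian pair 0.503%. The share of the first stretch was lowest in set A (45.6 to 54.3%), higher in set C (55.0 to 57.3%) and highest in set B (64.7 to 72.9%), with no overlap between sets. Of the 33 members that passed the filter, 14 were higher in every set B heart than in any set A heart (53.3% of the tested miRNAs were), and 11 were higher in every set C heart than in any set A heart (35.6% of those tested). Most of the share of the first stretch was miR-127-3p, at 26.2% of the locus sum in sham 1 and 68.8% in MI 3.

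Opposite Rtl1, miR-127-3p was the leading member, with a mean of 1541 RPM over the 20 libraries, 53.7% of the locus. Its level was 833, 313, 170.1, 268 and 289 RPM in sham 1 to 5 and 3464, 237, 4105 and 589 RPM in MI 1 to 4. CIH 1 to 4 held 410.99, 169, 182 and 173 RPM, and the MI+CIH hearts lay between 661 and 6109 RPM with a median of 3119.5 RPM. Every MI+CIH heart was above every CIH heart, whereas sham 1 lay above MI+CIH 1, MI 2 and MI 4. MI 2 also lay below sham 2, sham 4, sham 5 and CIH 1. The difference from CIH was 3.26 ± 0.74 (SE) on the log2(RPM + 1) scale (adjusted p = 0.00272), and that from sham was 2.69 ± 0.69 (SE) (adjusted p = 0.00446), by limma with Benjamini-Hochberg adjustment over the 360 miRNAs. For MI against sham it was 1.88 ± 0.80 (SE) (adjusted p = 0.138). Here and for the members below, changes are on RPM without further scaling unless another fit is named. They are to be read beside the median change of all tested miRNAs, which is given with the comparisons. With the library set as a term, the difference between MI+CIH and CIH was 1.14 (adjusted p = 0.283).

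The Mir434 hairpin gave both arms, and miR-434-5p was the more abundant. Its level was 227, 52.5, 39.9, 31.8 and 31.5 RPM in the sham hearts, 109, 50.6, 75.9 and 212 RPM in the MI hearts and 37.0, 29.7, 37.5 and 26.5 RPM in the CIH hearts. In MI+CIH it lay between 61.3 and 336 RPM with a median of 179.6 RPM, higher than CIH by 2.22 ± 0.55 (SE) (limma adjusted p = 0.00351). Set C held 212 to 336 RPM, above all hearts of set B at 61.3 to 179.8 RPM, and of set A only sham 1 reached that range. The other arm, miR-434-3p, was 53.6, 16.5, 12.4, 14.2 and 18.5 RPM in sham, 65.7, 23.4, 44.6 and 50.4 RPM in MI and 33.3, 18.0, 13.0 and 15.7 RPM in CIH, and between 34.5 and 155 RPM with a median of 69.3 RPM in MI+CIH. Both arms were thus higher in every MI+CIH heart than in any CIH heart.

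The first hairpin of the locus, just outside Rtl1, gave miR-337-5p, whose change was the largest of the 33 members in MI+CIH against sham and against CIH. It held 7.76, 2.02, 1.27, 1.93 and 2.78 RPM in sham 1 to 5, 55.7, 2.14, 49.3 and 19.2 RPM in MI 1 to 4 and 3.21, 2.09, 1.26 and 1.01 RPM in CIH 1 to 4. The MI+CIH hearts held between 6.83 and 107 RPM with a median of 40.2 RPM, and MI+CIH 1, the lowest, was the only one under sham 1. The change from sham was 3.39 ± 0.69 (SE) (limma adjusted p = 0.00143) and from CIH 3.79 ± 0.73 (SE) (adjusted p = 0.00122). From a hairpin opposite Rtl1, miR-433-3p, at a mean of 10.6 RPM, rose by 2.89 against sham and 3.18 against CIH (limma adjusted p = 0.00315 and 0.00278).

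The 3p arm of Mir136 showed another pattern. Its level was 334, 75.6, 81.5, 39.1 and 48.8 RPM in sham, 38.04, 81.7, 26.0 and 16.4 RPM in MI and 53.9, 51.1, 21.4 and 51.1 RPM in CIH. The MI+CIH hearts lay between 10.04 and 301 RPM with a median of 37.4 RPM, and the highest was MI+CIH 1 of set A. Its differences of -1.26 in MI and -1.11 in MI+CIH against sham did not pass the test (limma adjusted p = 0.234 and 0.158), and with the library set as a term they were 0.69 and 1.13, with the opposite sign. In sets B and C it was 10.04 to 47.3 and 16.4 to 37.4 RPM, against 21.4 to 334 RPM in set A.

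In the miR-379 to miR-410 stretch, miR-379-5p led with a mean of 463 RPM, 16.1% of the locus. Its level was 715, 154.3, 79.2, 118 and 119.7 RPM in sham, 1012, 132, 903 and 175 RPM in MI, 178, 93.3, 164 and 82.1 RPM in CIH and between 240.4 and 1592 RPM with a median of 578 RPM in MI+CIH. Every MI+CIH heart was above every CIH heart, while sham 1 lay above the median of MI+CIH. The changes of 2.31 ± 0.68 (SE) against CIH and 1.88 ± 0.64 (SE) against sham passed the test (limma adjusted p = 0.00883 and 0.0191). The latter was −0.11 with edgeR on the recovered reads, a change of sign that did not pass (adjusted p = 0.893).

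Its neighbour miR-411-5p was next in the locus at 211 RPM. Its level was 566, 145, 108, 95.6 and 114 RPM in sham, 321, 147, 208 and 131 RPM in MI, 155, 105.5, 77.4 and 96.9 RPM in CIH and between 124 and 457 RPM with a median of 306 RPM in MI+CIH. The highest of the 20 hearts was sham 1. Against sham and CIH the MI+CIH difference was 0.63 ± 0.49 (SE) and 1.21 ± 0.52 (SE) (limma adjusted p = 0.262 and 0.0512), and both turned negative under median-of-ratios or TMM scaling, edgeR and DESeq2.

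Among the largest changes in this stretch was that of miR-541-5p. It held 13.5, 6.88, 5.08, 4.21 and 3.52 RPM in sham 1 to 5, 49.8, 5.94, 59.3 and 71.8 RPM in MI 1 to 4 and 5.17, 3.00, 7.25 and 3.29 RPM in CIH 1 to 4. The MI+CIH hearts held between 14.2 and 105.4 RPM with a median of 79.4 RPM, and each of them was above every sham and CIH heart. It rose by 3.22 ± 0.57 (SE) against sham (limma adjusted p = 0.000634) and 3.58 ± 0.61 (SE) against CIH (adjusted p = 0.000712). In MI alone the difference from sham was 2.34 ± 0.66 (SE) (adjusted p = 0.0701), and MI 2 lay within the sham range. The MI+CIH change against sham was 0.85 with the library set as a term (adjusted p = 0.618).

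Close in size was the change of miR-382-5p, which held 7.03, 1.48, 1.08, 1.05 and 1.46 RPM in sham, 43.1, 2.35, 45.5 and 7.002 RPM in MI and 2.38, 1.33, 0.774 and 1.43 RPM in CIH. The MI+CIH hearts held between 4.77 and 92.1 RPM with a median of 38.2 RPM, all above every CIH heart, while sham 1 lay above MI+CIH 1 and MI+CIH 6. It rose by 3.27 ± 0.77 (SE) against sham and 3.54 ± 0.82 (SE) against CIH (limma adjusted p = 0.00272 and 0.00272), and the change against sham was 0.88 with the library set as a term (adjusted p = 0.662).

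The next members of the stretch split by library set. The level of miR-409-3p was 21.3, 11.1, 5.86, 9.30 and 7.91 RPM in sham, 71.6, 9.73, 116 and 8.16 RPM in MI and 13.4, 7.68, 13.9 and 7.26 RPM in CIH, and between 9.68 and 187 RPM with a median of 71.5 RPM in MI+CIH. It was 71.5 to 187 RPM in set B, above sets A and C, which lay at 5.86 to 21.3 and 8.16 to 11.3 RPM. The reverse held for miR-381-3p, at 257 to 406 RPM in set C against 9.48 to 123 RPM in A and 12.6 to 83.5 RPM in B. By group miR-381-3p was 117, 47.8, 29.4, 23.0 and 26.9 RPM in sham, 55.3, 34.6, 24.5 and 257 RPM in MI, 25.9, 18.4, 9.48 and 15.9 RPM in CIH and between 12.6 and 406 RPM with a median of 83.5 RPM in MI+CIH. Its near twin in sequence, miR-300-3p, was 20.01 to 31.1 RPM in set C, inside its range of 4.06 to 70.5 RPM in A and 7.53 to 55.1 RPM in B. Like miR-409-3p, miR-134-5p was highest in set B, at 54.6 to 116 RPM against 4.54 to 49.9 and 10.8 to 19.9 RPM in A and C.

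**Figure D2:**
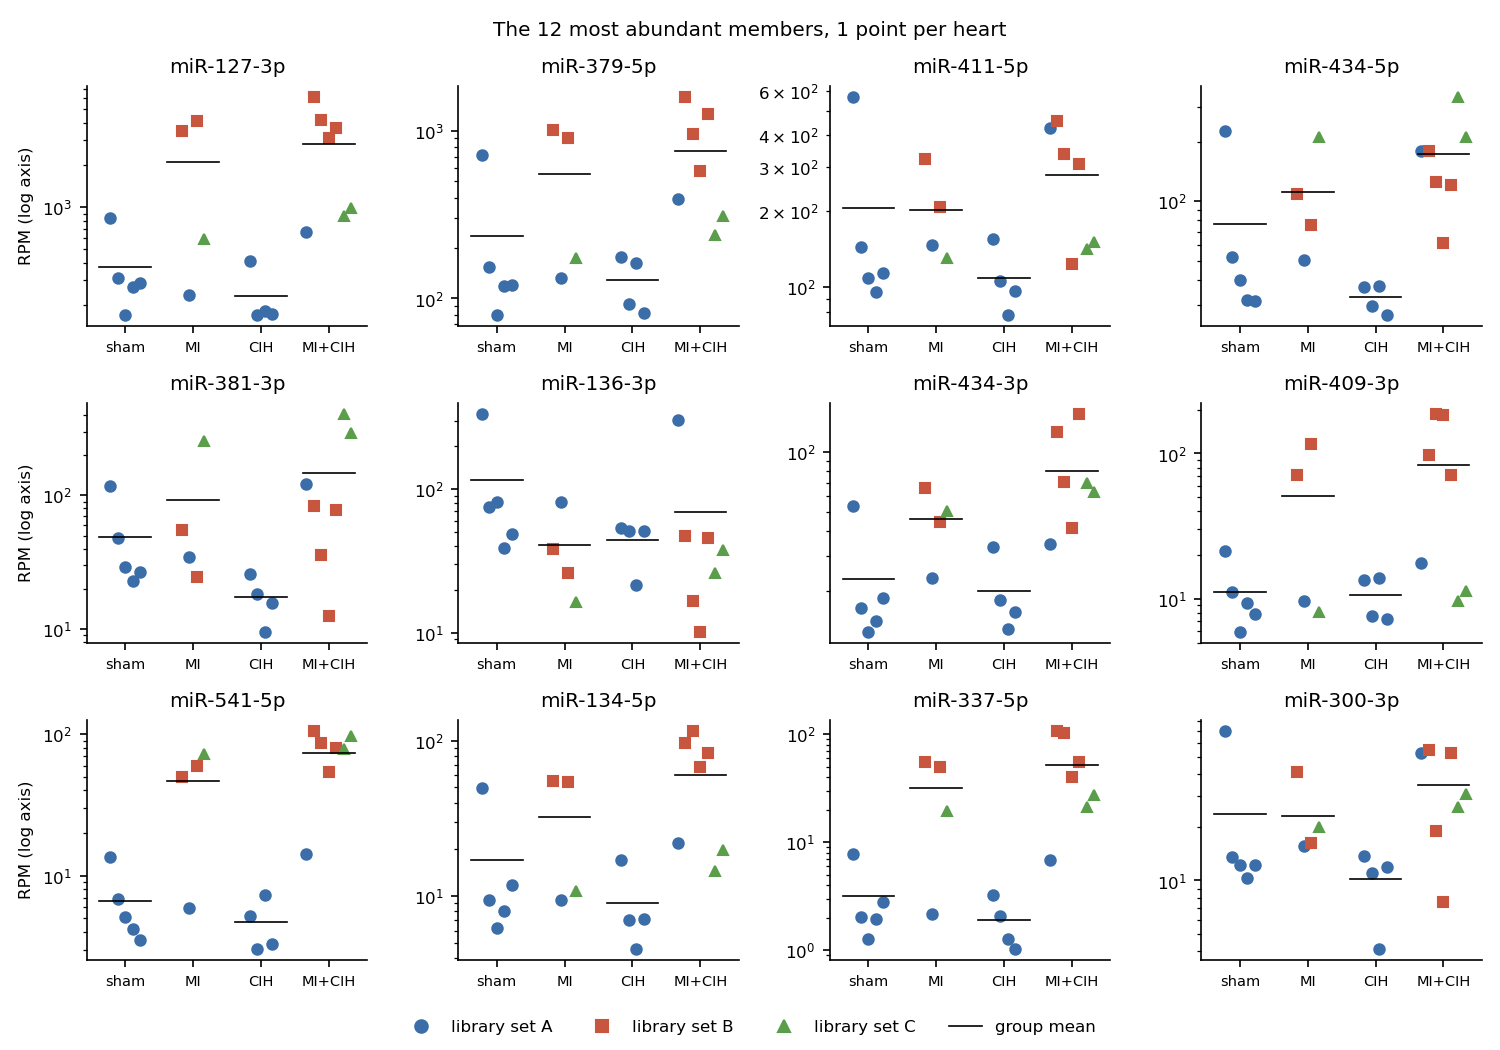
Level of each of the 12 most abundant members (RPM, log axes that differ between panels) in every heart, by group, with the library set by colour and shape and the group mean as a line. Sham 1 and MI+CIH 1 stand near the highest set B hearts for miR-411-5p and above all other hearts for miR-136-3p, and set C is high for miR-381-3p and miR-434-5p and low for miR-409-3p.

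On the Rian side, miR-370-3p and miR-341-3p were minor, at means of 7.49 and 6.94 RPM. The level of miR-370-3p was 4.66, 1.35, 2.05, 1.75 and 1.90 RPM in sham, 11.2, 2.62, 13.6 and 12.02 RPM in MI, 1.96, 1.42, 2.71 and 1.18 RPM in CIH and between 5.33 and 21.4 RPM with a median of 11.4 RPM in MI+CIH, with no overlap between MI+CIH and either sham or CIH. The other, miR-341-3p, was 17.7, 4.99, 2.15, 2.63 and 3.22 RPM in sham, 9.26, 3.38, 5.02 and 6.67 RPM in MI, 2.66, 3.00, 0.774 and 1.35 RPM in CIH and between 1.004 and 18.97 RPM with a median of 10.8 RPM in MI+CIH, and the groups overlapped.

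Of the 10 members that did not reach the filter, 7 stayed under 5 RPM in all libraries. The 10 were, from the highest mean down, miR-136-5p, miR-540-3p, miR-487b-3p, miR-667-3p, miR-376b-3p, miR-380-3p, miR-337-3p, miR-539-5p, miR-377-3p and miR-376a-3p. The first of them, miR-136-5p, had reads in 19 of 20 libraries and was 25.1 to 46.9 RPM in the 3 libraries of set C and at most 3.93 RPM in the other 17, so that it missed the filter by 1 library. The rarest, miR-376a-3p, had 6 reads in all and none in 17 libraries, where a count of 0 is compatible with levels of up to 3 reads (0.165 RPM in the deepest library and 1.51 RPM in the shallowest). Such limits cover counting error only, since reads without molecular identifiers are not independent molecules.

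**Figure D3:**
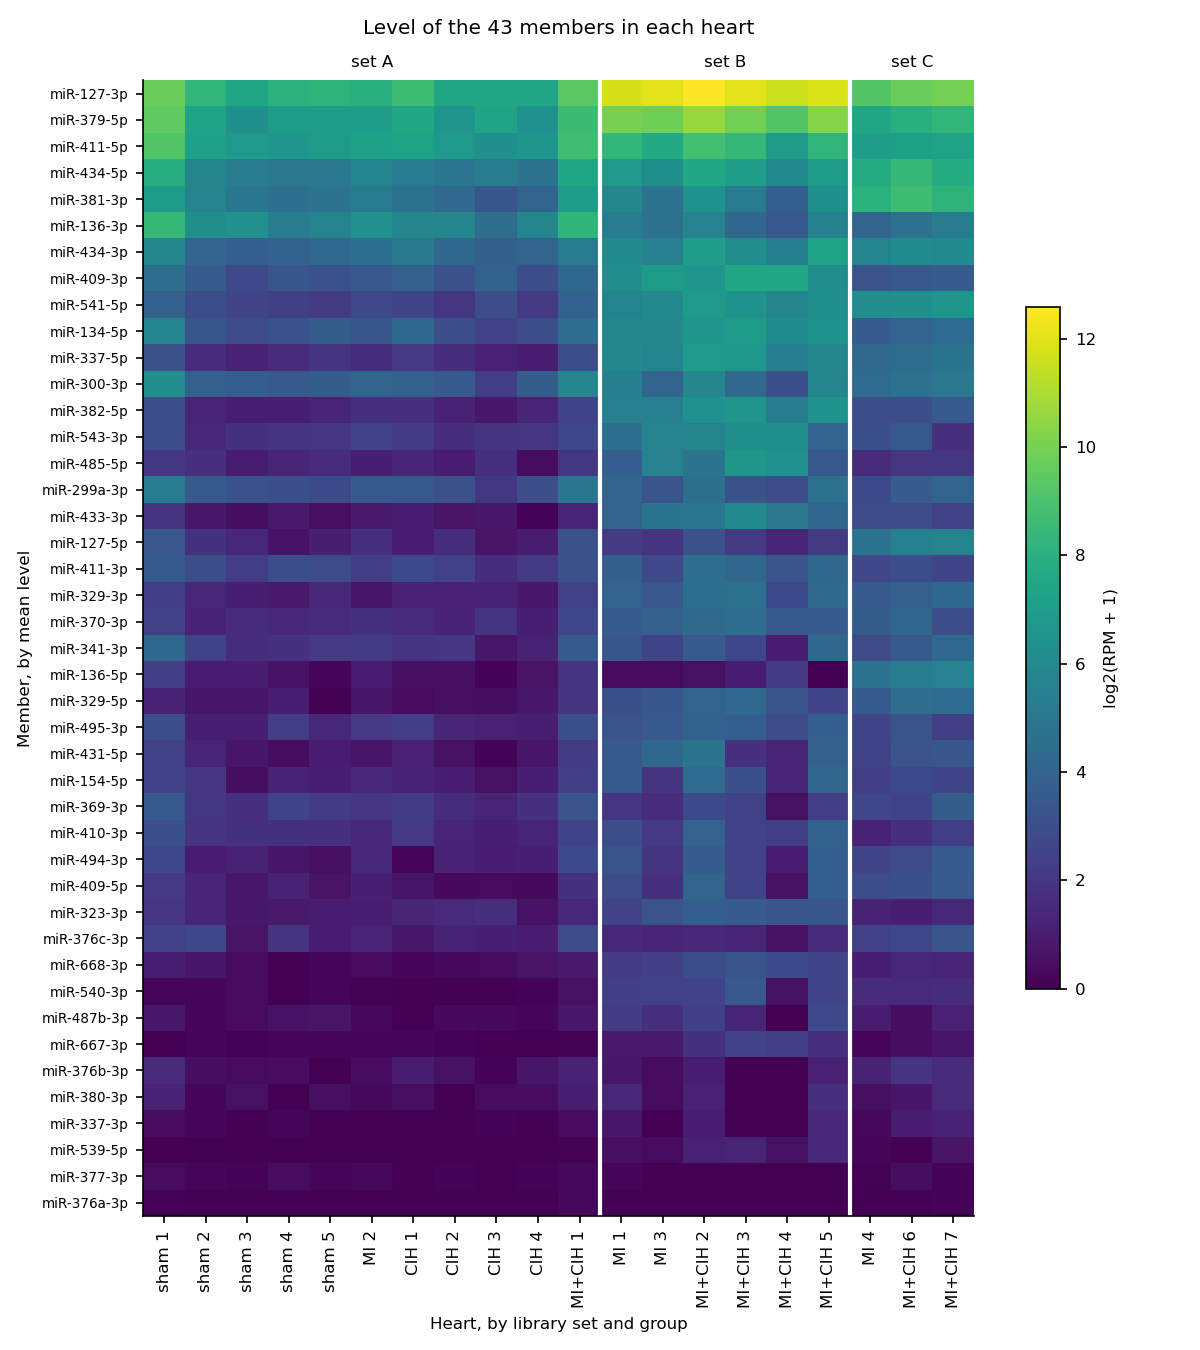
Level of the 43 members as log2(RPM + 1) in each of the 20 hearts (columns, ordered by library set and group), with members in rows from the highest mean level down. In 14 of the 33 members that passed the filter every set B heart is above every set A heart, beside 53.3% of the 360 tested miRNAs. The members miR-127-5p, miR-136-5p and miR-381-3p are brightest in set C.

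MI+CIH against sham gave 22 called members of 33, all higher, where 52.2% of the 360 tested miRNAs were called higher and 56.7% were called in either direction. The median log2 change was 1.64 over the 33 members and 1.39 over all 360. The 10 members with the largest changes among those called were miR-337-5p (3.39), miR-382-5p (3.27), miR-541-5p (3.22), miR-433-3p (2.89), miR-329-5p (2.82), miR-127-3p (2.69), miR-329-3p (2.41), miR-485-5p (2.37), miR-543-3p (2.29) and miR-409-3p (2.12). Of these 10, miR-433-3p, miR-329-5p, miR-329-3p and miR-485-5p reached 5 RPM in no sham or CIH heart. Among sham and CIH hearts, miR-337-5p, miR-382-5p and miR-543-3p reached it only in sham 1. All these members thus passed the filter only because of infarcted hearts, the side on which they were called higher. The 11 that were not called were miR-127-5p, miR-136-3p, miR-381-3p, miR-410-3p, miR-411-3p, miR-341-3p, miR-300-3p, miR-411-5p, miR-299a-3p, miR-376c-3p and miR-369-3p. In 4 of 33 members (miR-329-3p, miR-329-5p, miR-370-3p and miR-541-5p) every MI+CIH heart was above every sham heart, beside 13.6% of the tested miRNAs. Of these 4, miR-329-3p, miR-329-5p and miR-370-3p reached 5 RPM in no sham or CIH heart, so they passed the filter through infarcted hearts alone. The count of called members was 5 with edgeR and 11 with DESeq2, which called 23.6% and 40.6% of the tested miRNAs. It was 10 with median-of-ratios scaling (9 higher and 1 lower) and 8 with TMM scaling (7 higher and 1 lower), beside 31.1% and 31.7% of those tested. Median-of-ratios scaling lowered the median change of all tested miRNAs from 1.39 to 0.12, and that of the members from 1.64 to 0.49. The called count was 24 without sham 1 (53.6% of those tested), with a median change of 2.002, and 13 without sham 3 (41.1%). With the library set as a term 0 members and 0.0% of the tested miRNAs were called, and the median was 0.70 over the members and 0.21 over all tested. That fit reaches the sham hearts only through MI 2 and MI+CIH 1, so its lack of calls decides little.

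MI+CIH against CIH gave 27 called members of 33, again all higher, beside 56.9% called and 54.7% called higher of the tested miRNAs. The median change was 2.21 over the members and 1.51 over all tested. The largest was that of miR-337-5p, 3.79 ± 0.73 (SE), followed by miR-541-5p, miR-382-5p, miR-127-3p and miR-433-3p at 3.58, 3.54, 3.26 and 3.18. Not called were miR-411-5p, miR-323-3p, miR-299a-3p, miR-376c-3p, miR-369-3p and miR-136-3p. In 16 of 33 members every MI+CIH heart was above every CIH heart, as in 27.8% of the tested miRNAs. Among these 16, some reached 5 RPM in infarcted hearts alone. They were miR-154-5p, miR-329-3p, miR-329-5p, miR-370-3p, miR-431-5p, miR-433-3p, miR-485-5p and miR-668-3p. For miR-337-5p, miR-382-5p and miR-495-3p, sham 1 was the only heart without infarction to reach 5 RPM. All these members thus passed the filter only because of infarcted hearts. With edgeR 8 members were called (20.8% of those tested) and with DESeq2 15 (36.9%), and 9 were called with median-of-ratios scaling (26.9%). With the library set as a term 0 were called (0.0%), and 14 of 33 had an unadjusted p under 0.05, beside 17.2% of those tested. All 33 changes were then positive, as were 74.2% of those tested, with a median of 1.15 beside 0.42 over all tested. Set A alone holds the 4 CIH hearts and MI+CIH 1, and there the median was 1.48.

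MI against sham gave 0 called members by limma, as for all 360 tested miRNAs (0.0%). Of the 33 members, 27 had a positive change (80.8% of those tested had) and 11 an unadjusted p under 0.05 (28.1% of those tested), with a median of 1.01 beside 0.94 over all tested. The 3 members with the smallest p, miR-541-5p, miR-329-5p and miR-370-3p, differed by 2.34, 1.95 and 1.59 (adjusted p = 0.0701 for each). With edgeR 0 members were called (0.0%), and with DESeq2 5 (10.8%). MI 2 lay above every sham heart in 0 of 33 members (6.67% of those tested) and within the range of sham 2 to 5 in 22 (55.0% of those tested). Without MI 2, limma called 10 members and 31.4% of the tested miRNAs, and without MI+CIH 1, which enters only the shared spread, 4 members and 8.61%. Without both sham 1 and MI 2 it called 16 members, beside 31.7% of the tested miRNAs, with a median of 1.68. With the library set as a term the median was 0.19 and 0 were called.

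CIH against sham gave 0 called members by limma (0.0% of those tested) and 0 with an unadjusted p under 0.05 (0.278%). edgeR and DESeq2 called 0 members too (0.0% and 0.278% of those tested), and each gave 1 member an unadjusted p under 0.05, beside 1.94% and 2.78%. The change was negative in 31 of 33 members and positive in 2, where 27.8% of the tested miRNAs were positive, with a median of −0.50, beside −0.21 over all tested. Without sham 1 it was negative in 23 and positive in 10, beside 33.1% positive of those tested, with a median of −0.12 beside −0.11 over all tested. The 3 smallest p were those of miR-341-3p (-0.998 ± 0.63 (SE)), miR-381-3p (-1.24 ± 0.83 (SE)) and miR-411-3p (-0.66 ± 0.48 (SE)), each with a limma adjusted p of 0.998.

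MI+CIH against MI asks what CIH adds to infarction. Limma, edgeR and DESeq2 each called 0 members and 0.0% of those tested. With none of them did a member have an unadjusted p under 0.05 (0 of 33), beside 4.72%, 4.17% and 6.11% of those tested. All 33 changes were positive, as were 80.3% of those tested, with a median of 0.63 over the members and 0.41 over all tested. Without MI 2 the median was 0.26, and 28 were positive, beside 51.9% of those tested. The 3 smallest p were those of miR-410-3p (0.82 ± 0.48 (SE)), miR-329-3p (0.94 ± 0.56 (SE)) and miR-329-5p (0.88 ± 0.56 (SE)), with a limma adjusted p of 0.895 for each. With the library set as a term the median was 0.54, 2 members had an unadjusted p under 0.05 (13.3% of those tested), and 0 were called. The median was 0.36 in set B alone and 0.42 in set C alone, where 0 members were called.

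Set beside the MI hearts of its own library set, a MI+CIH heart was mostly the higher. In 28 of 33 members at least 5 of the 7 MI+CIH hearts were above every MI heart of their set, beside 40.3% of the tested miRNAs. At least 6 of 7 were in 7 members, beside 16.1%, and all 7 were in 2 members, miR-134-5p and miR-668-3p, beside 4.44%. Of these 2, miR-668-3p reached 5 RPM only in MI+CIH 2, 3, 4 and 5, so it passed the filter through MI+CIH hearts alone. Since MI 2 and MI 4 are the only MI hearts of sets A and C, all these counts within sets lean on that pair of libraries. Whether the effect of CIH differed between infarcted and sham hearts was tested as an interaction, which gave 0 called members (0.0% of those tested) and 0 with an unadjusted p under 0.05 (3.89%). With edgeR and DESeq2, 0 members and 0.0% of those tested were called, and 1 and 2 members had an unadjusted p under 0.05, beside 3.61% and 5.0%. All 33 members were positive, as were 81.1% of those tested. Its median was 1.13 over the members, beside 0.63 over all tested, and 0.33 without sham 1 and MI 2.

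**Figure D4:**
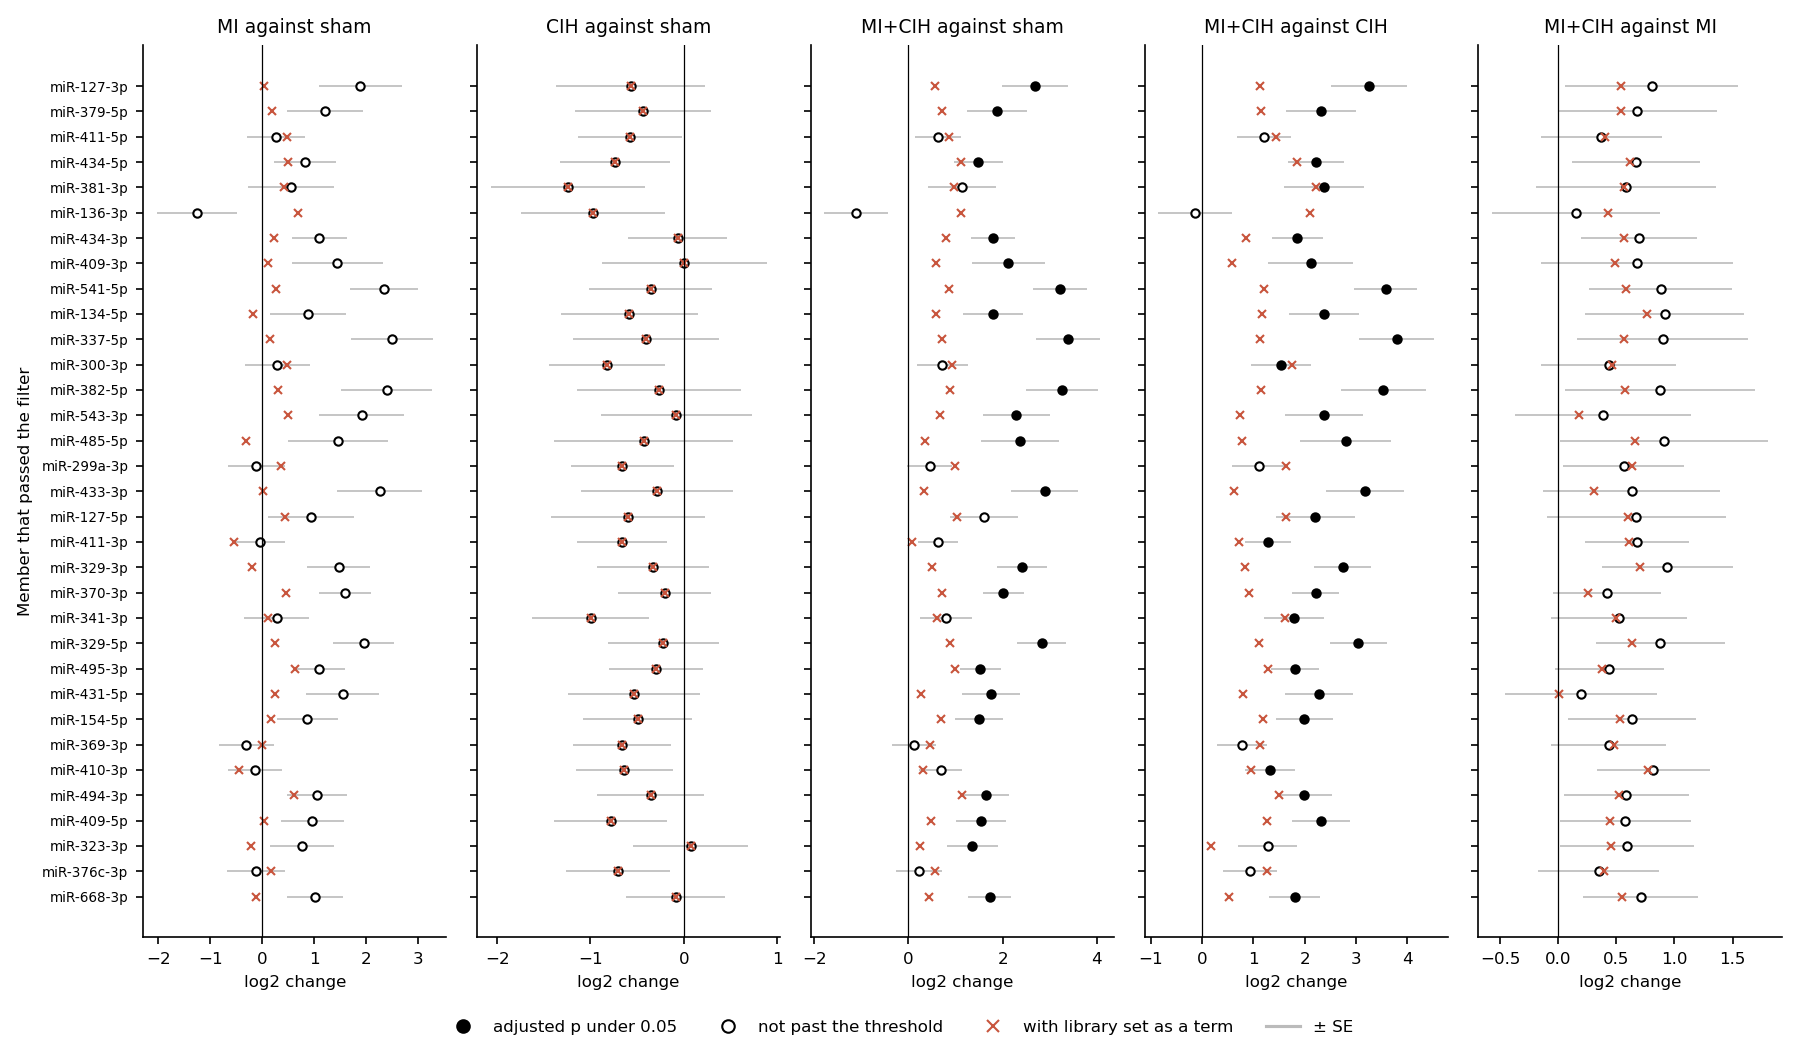
Log2 change of the 33 members that passed the filter (log2(RPM + 1) scale, axes differ between panels) in 5 comparisons, with SE as bars, filled points for an adjusted p under 0.05 and crosses for the same change with the library set as a term. Filled points appear in the panels of MI+CIH against sham (22) and against CIH (27), beside 56.7% and 56.9% of the 360 tested miRNAs. The crosses in these panels lie nearer to 0 for most members.

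A pair of libraries of set A stood high in the locus. Sham 1 was above every other sham heart in 32 of the 33 members, all but miR-376c-3p, beside 48.3% of the tested miRNAs. In the 12 most abundant members it held 2.49 to 6.07 times the mean of sham 2 to 5. MI+CIH 1, the only MI+CIH heart of set A, was above every CIH heart in 32 of 33 members, all but miR-323-3p, beside 53.3% of those tested. It was above MI 2, the only MI heart of set A, in 33 of 33, beside 76.4%. These are single hearts, so the last 2 counts have no replicate check.

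Marker miRNAs of other cells differed between the library sets as well, and the members of a list did not always go the same way. The summed level of the 4 fibroblast markers (miR-199a-3p, miR-199a-5p, miR-214-3p and miR-214-5p, all detected) was 392 to 1871 RPM in sham, 368 to 3997 RPM in MI, 189 to 428 RPM in CIH and 1277 to 6898 RPM in MI+CIH. Among them miR-214-3p was highest in set B (643 to 2407 RPM) and miR-199a-3p in set C (3209 to 4539 RPM). The highest sum among the sham libraries was that of sham 1, in which miR-214-3p was at 198 RPM. In the same heart the injury-associated miR-21a-5p was at 100570 RPM, and in MI+CIH 1 at 108142 RPM, where the 9 other hearts of set A did not pass 28616 RPM.

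The 5 leukocyte markers summed to 1209 to 1929.9 RPM in set B, 207 to 652 RPM in A and 325 to 640 RPM in C, and miR-150-5p had the highest median of the 5 in set B (543.1 to 1648 RPM). Of the same list, miR-142a-3p was lowest in set B, at 0 to 4.25 RPM, with 4.49 to 32.6 RPM in A and 36.8 to 96.0 RPM in C. The 4 neural markers summed to 787 to 1768 RPM in set B, against 249 to 534 RPM in A and 196 to 359 RPM in C, while the neuronal miR-124-3p did not pass 5.31 RPM in any library. Of the endothelial pair, miR-126a-3p was 24286 to 49894 RPM in set C and at most 9206 RPM elsewhere, whereas miR-126a-5p was 367 to 481 RPM in set C and 488 to 1821 RPM in set A. The smooth muscle miRNA miR-143-3p was lowest in set C, at 24478 to 39387 RPM, with 133678 to 260901 RPM in A and 127688 to 269317 RPM in B, and miR-145a-5p of the same list was highest in set B (2807 to 4813 RPM). The erythroid pair overlapped between the sets, with sums of 322 to 3105 RPM in A, 97.4 to 5680.0 RPM in B and 773 to 2153 RPM in C. The skeletal muscle miRNA miR-206-3p, at most 4.74 RPM in set A, reached 437 RPM in set B. The 4 cardiomyocyte markers summed to 183298 to 317712 RPM in A, 88403 to 184642 RPM in B and 241459 to 295409 RPM in C, most of it miR-1a-3p. The cardiomyocyte marker miR-133a-3p went the other way, at 1533 to 3637 RPM in A, 8427 to 23097 RPM in B and 5345 to 6725 RPM in C. Of the same list, miR-499-5p was highest in A (1683 to 4598 RPM), with 419 to 1496 RPM in B and 720 to 1490 RPM in C. For miR-208a-3p the levels were 30.9 to 100.2 RPM in A, 3.01 to 28.6 RPM in B and 42.5 to 100.5 RPM in C. In whole heart, fewer cells of a type and less miRNA per cell cannot be told apart, and the part of these cells in the locus differences was not tested.

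Over the 20 libraries, each passing member was correlated with the mean of the others at a median Pearson's r of 0.839 (range −0.171 to 0.952). These points share library depth and library set. Within the 11 libraries of set A the median was 0.905, and 0.593 in its 9 libraries other than sham 1 and MI+CIH 1. Outside the locus, the 5 tested miRNAs most like the mean of the members over the 20 libraries were miR-214-3p (r = 0.948), miR-497a-5p (0.9365), miR-484 (0.934), miR-298-5p (0.925) and miR-24-3p (0.925). Within set A, with sham 1 and MI+CIH 1 included, the first and the fourth of these had values of 0.959 and 0.962. Whether these values hold without that pair of libraries was not tested. These correlations are descriptions of 20 libraries that fall into 3 sets, and no test was made of them.

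The balance of the 2 arms of a hairpin differed between library sets for some hairpins and not for others. The 5p arm of Mir127 made up 4.15 to 4.87% of the hairpin's reads in set C, against 0.196 to 1.27% for set A and 0.0483 to 0.125% for set B. For Mir136 it was 55.6 to 60.5% in set C and 0.299 to 1.33% in A, while set B ran from 0 to 25.9% on as few as 27 reads. Both arms of Mir136 overlap an entry on the opposite strand, miR-3071-5p for the 3p arm and miR-3071-3p for the 5p arm. The mean of miR-3071-3p was 7.35 RPM, beside 6.34 RPM for miR-136-5p, so the Mir136 share may include reads of that strand. For Mir409 the 5p share was 2.04 to 13.1% in A, 0.270 to 14.8% in B and 43.1 to 47.7% in C. In these 3 hairpins set C thus did not overlap the other sets, and it holds MI as well as MI+CIH hearts. Mir411 gave 93.2 to 98.3% of its reads from the 5p arm in all 20 libraries, with no such split. Mir434 gave 77.2 to 82.9% in set C, above the 43.8 to 64.1% of set B, while set A at 52.7 to 83.9% overlapped both. Mir329 gave 0 to 61.5%, from as few as 11 reads. Mir337 gave 91.7 to 100% from its 5p arm. The labels give no step of library preparation that differed between sets, and the cause of the split was not tested.

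**Figure D5:**
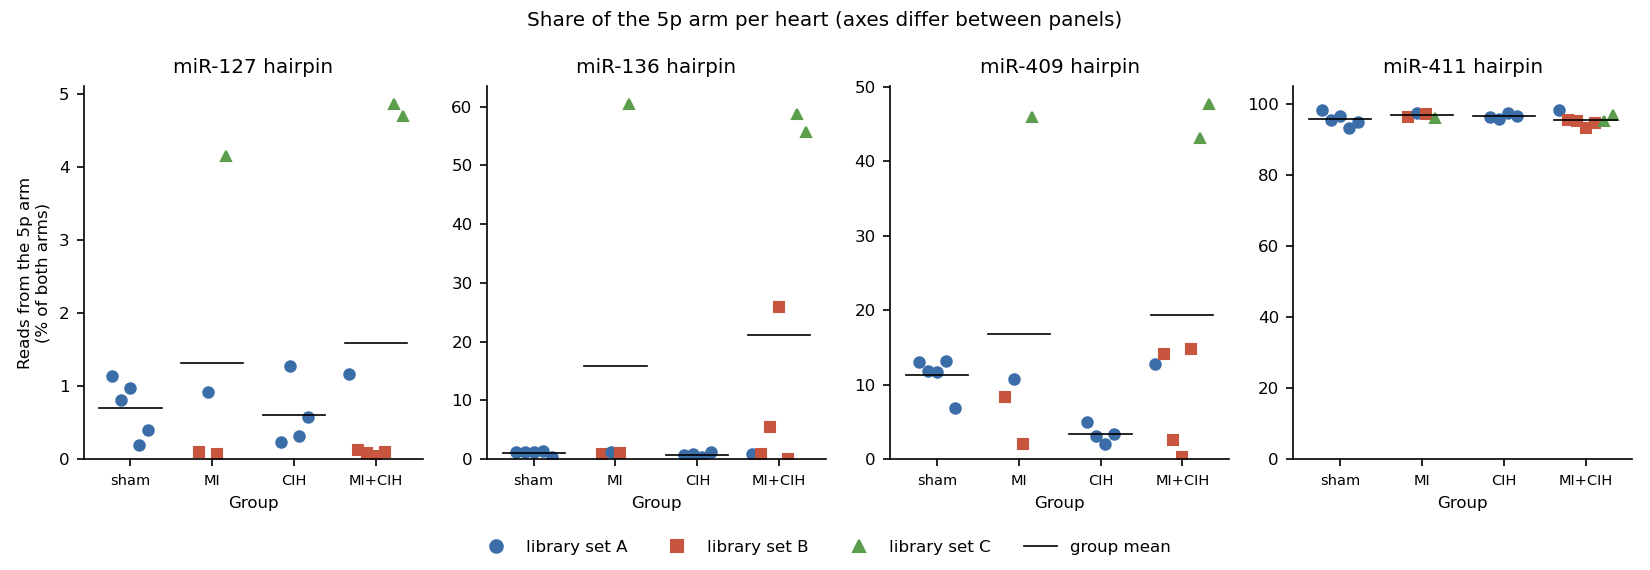
Share of each hairpin's reads that came from its 5p arm (% of both arms, axes differ between panels) in every heart for 4 hairpins, with the library set by colour and shape and the group mean as a line. Set C stands apart for Mir127, Mir136 and Mir409, and all hearts lie between 93.2 and 98.3% for Mir411.

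Other annotated miRNAs of the locus, 58 entries that are not members, were rarer. Of these, 10 passed the filter. In MI+CIH 6 of the 10 were called higher against sham and 8 of 10 against CIH, beside 52.2% and 54.7% of the tested miRNAs, with median changes of 1.45 and 1.72. For MI against sham, CIH against sham and MI+CIH against MI, 0 of 10 were called by limma, and 1, 0 and 0 had an unadjusted p under 0.05. Among them is miR-3071-5p, whose values cannot be told apart from those of miR-136-3p.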

How the data were processed

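Small RNA of 20 mouse hearts had been sequenced from libraries made with a small RNA kit for Illumina, per the labels' protocols. The authors deposited 1 table of miRNA levels whose columns each sum to 1000000, so that its values are RPM, reads per 1000000 miRNA reads. The submitters' processing notes name the build mm10 and the tools Bowtie and DESeq 1.8.3. The miRBase release and the rules for counting are not given in the sources used here. RPM are shares of a library, so a change in an abundant miRNA moves the values of the others. Whole reads were recovered in every library: 100% of values were whole multiples of 1 read within 0.05 reads.

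The main test was limma 3.58.1 (R 4.3.3) with a trend on log2(RPM + 1), over the 360 miRNAs that reached 5 RPM in 4 or more libraries. It fitted a mean per group over 20 libraries (16 residual degrees of freedom), with two-sided p-values, Benjamini-Hochberg adjustment over the 360 in each contrast and a threshold of 0.05. Fold changes on this scale are understated for low miRNAs. The filter ignored the groups, so a miRNA low in sham and CIH hearts could pass through infarcted hearts alone. Counts of higher members, and the shares of the tested miRNAs beside them, both carry this limit. The edgeR 4.0.16 quasi-likelihood test and DESeq2 1.42.0 were run on the recovered reads. In MI+CIH against sham these called 85 and 146 of the 360, and in MI+CIH against CIH 75 and 133. Library sets were cut from a clustering of the tested miRNAs outside the locus, so they are groups found in these data and not in the labels. The labels do not say that a number links hearts of different groups. Across 25 same-numbered pairs the deviations from the group means were correlated at −0.711 to 0.867, and 10 pairs passed an r of 0.1, so the numbers were not taken to pair hearts.

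The fit was tested on simulated data with 200 changed miRNAs. Where the 40 most abundant were left unchanged it found nearly all changed miRNAs and called few others. Where abundant miRNAs were changed too, it also called most unchanged ones. Counts of called members on RPM are thus shown beside those of scaled values and of the count tests. Changes and p-values of single members are from limma on RPM unless another fit is named, and they carry this limit. Named members are the 12 with the highest mean, in each contrast the called members (at most 10, by size) and the 3 with the smallest p, both arms of a hairpin, members that share a seed, members below the filter, and the 5 miRNAs most like the locus mean. The members and lists were chosen with earlier results of these data known, and the alternatives within sets B and C and the removal of entries that count the same reads as another were chosen after seeing the data. Each heart is a separate sample in the labels, and p-values measure the spread between these samples.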

Additional observations from a re-analysis of the deposited data

Results flagged for a closer look

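Among 80 groups of 4 to 7 hearts examined, 22 held a heart far from the others of its group by the gap between it and the nearest, and 11 of these were sham 1. The cut-off of the rule is set so that about 1 of 20 groups of normally distributed values would pass by chance. Whether these levels and arm shares are so distributed was not checked, so the rate need not hold here. The groups also share hearts and are not independent. Sham 1 stood above the other sham hearts in the locus sum, at 3172 RPM against 589.5 to 906 RPM, and in miR-127-3p at 833 RPM, miR-379-5p at 715 RPM, miR-411-5p at 566 RPM, miR-434-5p at 227 RPM, miR-381-3p at 117 RPM, miR-136-3p at 334 RPM, miR-434-3p at 53.6 RPM, miR-134-5p at 49.9 RPM, miR-337-5p at 7.76 RPM and miR-300-3p at 70.5 RPM. CIH 1 stood above the other CIH hearts in the sum, at 997 RPM against 524 to 564 RPM, and in miR-127-3p at 410.99 RPM. CIH 3 was low in miR-136-3p at 21.4 RPM, against 51.1 to 53.9 RPM. MI+CIH 1 was high in miR-136-3p at 301 RPM, against 10.04 to 47.3 RPM in the other MI+CIH hearts. MI 4, the only MI heart of library set C, was high in miR-381-3p at 257 RPM, and MI 1 in miR-300-3p at 41.4 RPM.

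In the share of reads from the 5p arm, MI 4 stood apart for Mir136 at 60.5%, against 0.852 to 1.25% in the other MI hearts. Sham 5 was low for Mir136 at 0.299% and for Mir409 at 6.90%. MI 1 was low for Mir329 at 33.2%, and CIH 3 for Mir337 at 92.9%, where the other CIH hearts gave 100%. The last of these values rests on 13 reads of one arm and 1 of the other.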

How the results depend on the processing

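The members called in MI+CIH against sham numbered 22 and in MI+CIH against CIH 27, and these counts fell to 10 and 9 with median-of-ratios scaling, 8 and 9 with TMM (114 and 90 of the 360 tested), 5 and 8 with edgeR, 11 and 15 with DESeq2, 3 and 5 with a mean of at least 50 RPM (6 members tested, with 55.4% and 56.6% of all miRNAs then tested called), and 0 and 0 with the library set as a term (0.0% of those tested) or in set A alone (0.556% and 0.0%). Their median changes of 1.64 and 2.21 became 0.49 and 0.80 with median-of-ratios scaling, 0.33 and 0.62 with TMM, 0.53 and 0.95 with edgeR, 0.70 and 1.10 with DESeq2, 1.01 and 1.31 with a pseudocount of 5 RPM, 0.70 and 1.15 with the set term and 1.01 and 1.48 in set A. For MI against sham the median of 1.01 became 0.33 with median-of-ratios scaling, 0.19 with TMM, 0.10 with edgeR, 0.34 with DESeq2, 0.19 with the set term and −0.11 in set A, and DESeq2 called 5. Without sham 1 and MI 2 together it was 1.68 with 16 called, and the interaction's median of 1.13 became 0.33. The replicate block, which takes the numbers of the labels as linked, gave 19 called members in MI+CIH against sham, 27 in MI+CIH against CIH (60.6% and 58.6% of those tested) and 0 in the other comparisons (0.0%), so it changed no comparison by over 1.5 times. With each library left out in turn, the median change ranged from 0.77 to 1.68 in MI against sham and from 0.33 to 1.41 in the interaction, the upper and the lower end being those without sham 1 and MI 2 together. The called members ranged from 0 to 10 in MI against sham (10 without MI 2 and 4 without MI+CIH 1), from 13 (without sham 3) to 24 in MI+CIH against sham and from 21 to 29 in MI+CIH against CIH, and the other 3 comparisons gave 0. Removing entries that count the same reads as another and a pseudocount of 0.5 RPM ended no call.

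Direction changed for some single members, in log2 change. With median-of-ratios scaling it was for MI against sham miR-411-5p −0.66, miR-434-5p −0.0932, miR-381-3p −0.35, miR-134-5p −0.00295 and miR-300-3p −0.59, and for CIH against sham miR-434-3p 0.20, and for MI+CIH against sham miR-411-5p −0.76, miR-381-3p −0.22 and miR-300-3p −0.59, and for MI+CIH against MI miR-411-5p −0.0986, miR-136-3p −0.29 and miR-300-3p −0.00671, and for MI+CIH against CIH miR-411-5p −0.45 and miR-300-3p −0.00612, and for interaction miR-409-3p −0.0418. With TMM scaling it was for MI against sham miR-411-5p −0.86, miR-434-5p −0.29, miR-381-3p −0.54, miR-134-5p −0.20 and miR-300-3p −0.78, and for CIH against sham miR-434-3p 0.18, and for MI+CIH against sham miR-411-5p −0.97, miR-434-5p −0.11, miR-381-3p −0.43 and miR-300-3p −0.79, and for MI+CIH against MI miR-411-5p −0.11, miR-136-3p −0.30 and miR-300-3p −0.0174, and for MI+CIH against CIH miR-411-5p −0.65 and miR-300-3p −0.18, and for interaction miR-409-3p −0.0368. With edgeR it was for MI against sham miR-379-5p −0.30, miR-411-5p −1.06, miR-434-5p −0.39, miR-434-3p −0.0963, miR-134-5p −0.55 and miR-300-3p −1.05, and for CIH against sham miR-434-3p 0.0584, and for MI+CIH against sham miR-379-5p −0.11, miR-411-5p −0.97, miR-434-5p −0.0263, miR-134-5p −0.0735 and miR-300-3p −0.76, and for MI+CIH against CIH miR-411-5p −0.33. With DESeq2 it was for MI against sham miR-411-5p −0.83, miR-434-5p −0.12, miR-134-5p −0.24 and miR-300-3p −0.82, and for CIH against sham miR-434-3p 0.13, and for MI+CIH against sham miR-411-5p −0.73 and miR-300-3p −0.53, and for MI+CIH against CIH miR-411-5p −0.19. With the library set as a term it was for MI against sham miR-136-3p 0.69 and miR-134-5p −0.18, and for MI+CIH against sham miR-136-3p 1.13, and for MI+CIH against CIH miR-136-3p 2.10. In set A alone it was for MI against sham miR-127-3p −0.44, miR-379-5p −0.32, miR-411-5p −0.10, miR-434-5p −0.11, miR-381-3p −0.21, miR-409-3p −0.0498, miR-541-5p −0.00552, miR-134-5p −0.37, miR-337-5p −0.23 and miR-300-3p −0.15, and for MI+CIH against sham miR-136-3p 1.84, and for MI+CIH against CIH miR-136-3p 2.82. In set B alone it was for MI+CIH against MI miR-136-3p −0.34 and miR-300-3p −0.0154. With the replicate block it was for CIH against sham miR-434-3p 0.0574 and miR-409-3p −0.0661, and for MI+CIH against MI miR-381-3p −0.19, and for MI+CIH against CIH miR-136-3p 0.0539. With a pseudocount of 5 RPM it was for CIH against sham miR-409-3p −0.00708. With 1 library, or sham 1 and MI 2 together, left out the range was −0.15 to 1.18 for miR-381-3p in MI against sham, −0.0161 to 0.92 for miR-300-3p in MI against sham, −0.70 to 0.092 for miR-379-5p in CIH against sham, −0.33 to 0.28 for miR-434-3p in CIH against sham, −0.17 to 0.26 for miR-409-3p in CIH against sham, −0.34 to 0.56 for miR-136-3p in MI+CIH against MI, −0.00691 to 1.38 for miR-337-5p in MI+CIH against MI, −0.62 to 0.17 for miR-136-3p in MI+CIH against CIH and −0.0764 to 1.32 for miR-409-3p in interaction. The cause of these changes was not tested. A fit of set B or set C alone for contrasts with sham or CIH was not run, since neither set holds such hearts. For the same reason the set term links infarcted hearts to sham or CIH hearts only through MI 2 and MI+CIH 1. Depth limits the members below the filter, where 1 read is worth up to 0.502 RPM.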
